A study of Mus musculus with 2 samples.

Results

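αSMA-labeled (Tom+) cells sorted from the periosteum 6 weeks after tamoxifen were compared with cells sorted 2 days after tamoxifen, the only pair of time points taken from the same mouse strain. Wells carrying the 2-day and the 6-week sample line were used when 200 or more genes had a UMI, a unique molecular identifier that marks 1 captured transcript. This kept 181 of 192 wells at 2 days and 189 of 216 at 6 weeks, which were 370 of the 503 kept wells of the series. Among these, Rgs5 wells (1 or more Rgs5 UMI) and tendon-gene wells (3 or more UMIs of Thbs4, Fmod and Tnmd together) were also compared separately. Wells with both were left out of both populations, which left 32 Rgs5 wells and 67 tendon-gene wells at 2 days and 41 and 64 at 6 weeks. A further 79 wells at 2 days and 80 at 6 weeks were in neither population.

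Both groups were aSMACreER/Ai9/Col2.3GFP mice, in which tamoxifen activates Cre in cells using the αSMA promoter and switches on the Ai9 Tomato reporter in them and their descendants, and in which Col2.3GFP marks osteoblasts. The 2-day cells came from mice aged 10.3 weeks after 2 days of chase and the 6-week cells from mice aged 14.4 weeks after 43 days, each after 2 injections of tamoxifen at 75 mg/kg. Each time point was 1 pool of mice and 1 sort of living Tom+ cells without antibody staining, so blood, vessel and muscle cells were not gated out. The 6-week cells had a plate of their own, and the 2-day cells shared the mixed plate with 13-week cells of strain aSMACreER/Ai9/R26-M2rtTA/TetOP-H2B-GFPH2B, aged 20.1 weeks and given doxycycline for 5 weeks, whose levels are given only beside the others. Time after tamoxifen, age, pool and plate cannot be told apart in this comparison. With 1 pool per time point there is no replicate and no test, and the brackets after a value are exact 95% intervals that cover counting error only.

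The periosteum is the thin tissue on the outer surface of bone that holds the progenitors of bone and cartilage in fracture repair. αSMA, the product of Acta2, is made by mural cells of vessels and by a subset of periosteal progenitors, so the cells labeled at 2 days are those using the promoter at the time of tamoxifen, and the cells labeled at 6 weeks are what remains of such cells and what they have become. Rgs5 is a marker of pericytes, the mural cells of small vessels, and Thbs4, Fmod and Tnmd are matrix and membrane genes of tendon, ligament and fibrous tissue. Bone-forming cells secrete type I collagen and then the mineral-associated proteins osteopontin (Spp1), bone sialoprotein (Ibsp) and osteocalcin (Bglap).

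The kept wells held 171209 UMIs at 2 days and 156763 at 6 weeks, with medians of 795 and 672 UMIs and 498 and 451 genes per well. Each UMI was backed by a mean of 5.02 reads at 2 days and 7.65 at 6 weeks, and mitochondrial genes took a median of 5.83% and 3.59% of the UMIs of a well. The 2 sets of kept wells shared 18 well barcodes, which are addresses on separate plates. Levels are pooled UMIs of a gene per 10000 UMIs of the same wells. The immune list had 54 UMIs at 2 days in 3.87% of wells and 33 at 6 weeks in 15.9% of wells. Of its members, Ptprc had 1 UMI at 2 days and 0 at 6 weeks, as did Cd74, and Tyrobp had 2 and 0, while S100a8 was found in 2 and 20 wells. Haemoglobin transcripts came almost all from 1 well at each time, which held 273 of 303 haemoglobin UMIs at 2 days and 446 of 457 at 6 weeks.

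Pooled over all kept wells, most genes were within 2-fold of each other at both times. Of 1771 genes listed for both plates with 30 or more UMIs over both times, 108 (6.1%) were 2-fold or more higher at 6 weeks and 57 (3.22%) were 2-fold or more lower, and the median log2 ratio was 0.04. When scaled by the median ratio of abundant genes, 138 were higher and 40 lower. Matrix genes of bone (Spp1, Ibsp and Mmp13), the nuclear RNA Neat1, endothelial genes and muscle genes led the higher side. The stress genes Atf3 and Mt2, the Wnt antagonists Sfrp2 and Wif1, Igf1 and Col16a1 were on the lower side. The plot of pooled levels places these genes against all others.

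**Figure D1:**
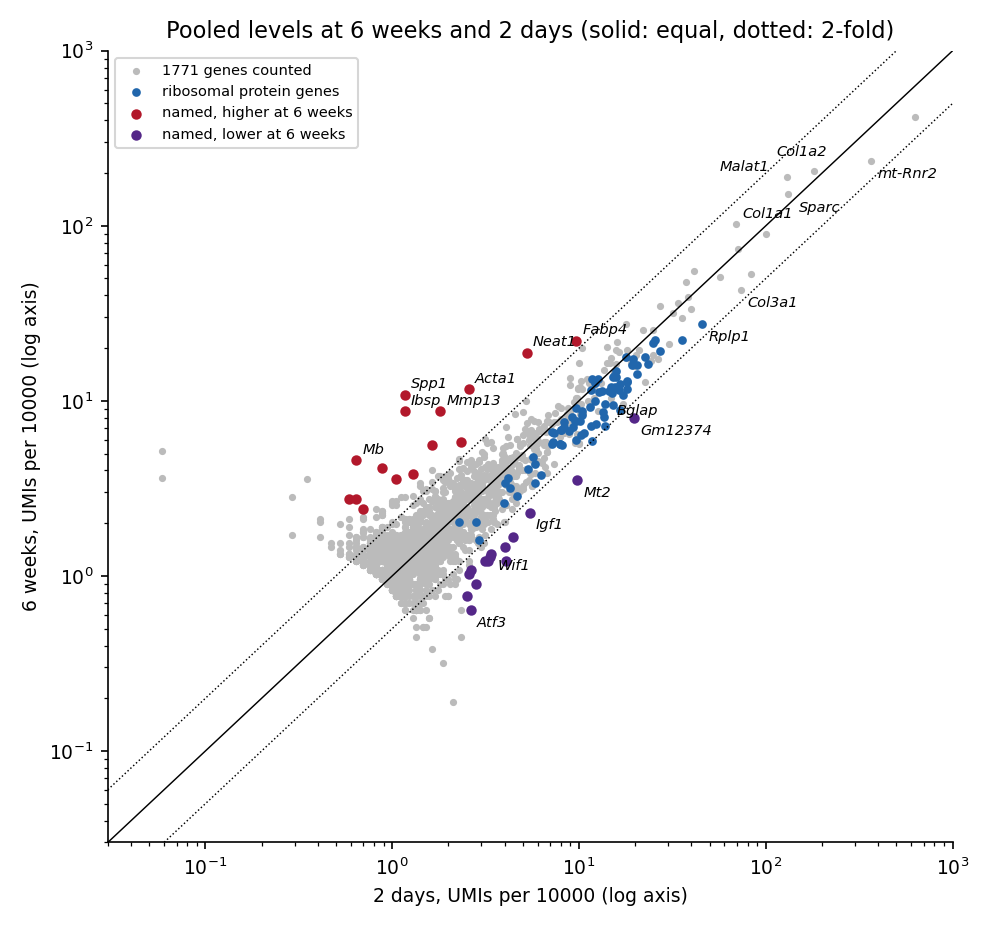
Level of each of 1771 genes in UMIs per 10000, at 2 days (x axis) and at 6 weeks (y axis), both on log axes, with a solid line for equal levels and dotted lines for 2-fold differences. Of these genes, 108 lie above the upper dotted line, Spp1 and Ibsp among them, and 57 below the lower one, such as Atf3 and Mt2.

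On the 6-week plate, type I collagen and Sparc were found in nearly every well, and bone matrix transcripts in low copy in many. Col1a2, a chain of type I collagen, had a UMI in 189 of 189 wells at 6 weeks and in 156 of 181 at 2 days. The lowest, median and highest wells held 0, 6 and 211 Col1a2 UMIs at 2 days and 3, 12 and 122 at 6 weeks. The ranges overlap over most of their length, but the bottom of the range at 6 weeks lies above 0 and the top lies below that of 2 days. The 10th and 90th percentiles were 0 and 49 UMIs at 2 days and 6 and 29.4 at 6 weeks, so wells differed less from each other at 6 weeks. The pooled level of Col1a2 was 1.14-fold higher at 6 weeks (1.08 to 1.20), from 181 to 206 UMIs per 10000, and does not show this difference in spread.

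Sparc and Col1a1 were also found in more wells at 6 weeks, Sparc in all and Col1a1 in all but 3. Sparc, a collagen-binding protein abundant in bone, had a UMI in 189 of 189 wells at 6 weeks and 167 of 181 at 2 days, with medians of 9 and 6 UMIs. Col1a1, the other chain of type I collagen, was detected in 186 wells at 6 weeks and 126 at 2 days, with medians of 6 and 2 UMIs. The pooled level was 1.16-fold higher for Sparc (1.09 to 1.23) and 1.48-fold for Col1a1 (1.37 to 1.60). At 13 weeks, on the plate of the 2-day wells, Col1a2 was found in 99 of 133 wells, Sparc in 119 and Col1a1 in 74, with medians of 2, 3 and 1 UMIs. The 13-week shares were therefore nearer to those of 2 days than to those of 6 weeks. The paper places the H2B-GFP cassette of the 13-week strain in the Col1a1 locus, and whether it alters Col1a1 counts was not tested.

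Col1a2 UMIs were more numerous in deeper wells at both times, less steeply at 6 weeks. With the wells of each time split into 4 groups of equal size by depth, the shallowest group at 6 weeks had a median of 350.5 UMIs, and in it the lowest well held 4 and the median well 9 Col1a2 UMIs. The medians of the next groups, at 522, 801 and 1295 UMIs, were 11, 13 and 20. At 2 days the groups had medians of 421.5, 664, 930 and 1570 UMIs and of 1, 4, 7 and 33 Col1a2 UMIs. From the shallowest to the deepest group, the level of Col1a2 at 6 weeks was 277, 220, 192 and 192 UMIs per 10000, and at 2 days it was 66.1, 126, 145 and 247. Rplp1, a ribosomal protein gene used by every cell, had medians of 1, 1, 2 and 4 UMIs over the 6-week groups.

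**Figure D2:**
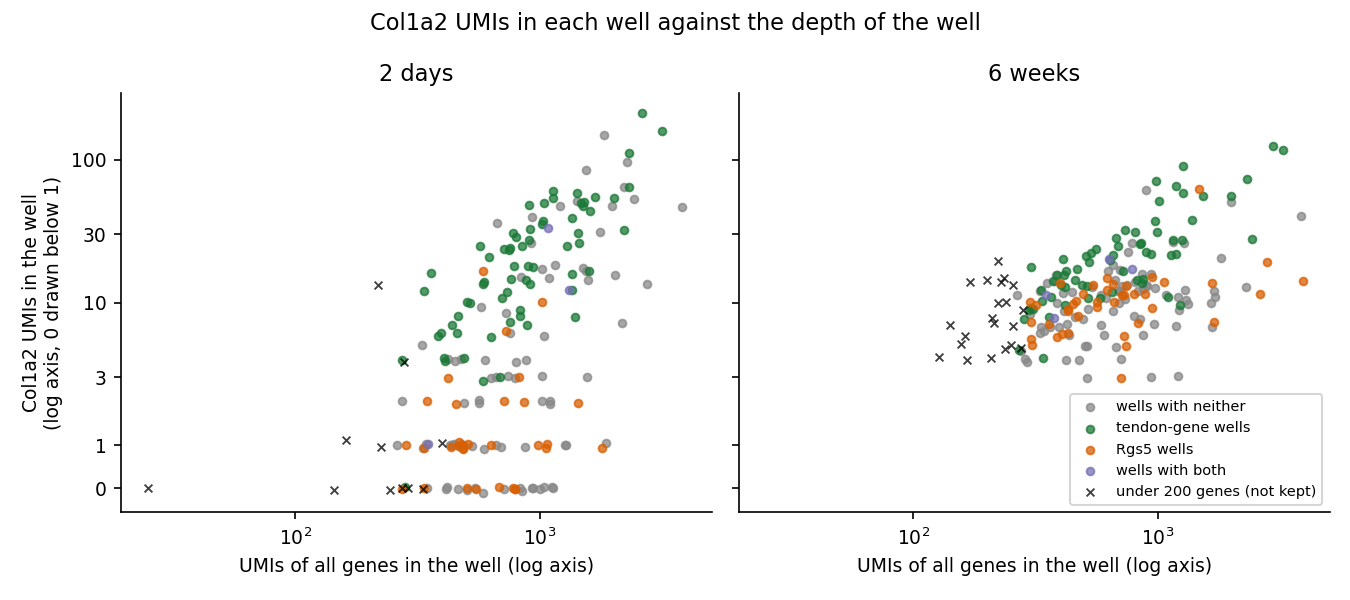
Each circle is a kept well at 2 days (left) or 6 weeks (right), colored by population and slightly jittered in height, and each cross a well under 200 genes, with the UMIs of all genes on the x axis and the Col1a2 UMIs on the y axis, both on log axes and with 0 drawn below 1. At 6 weeks no kept well lies below 3 Col1a2 UMIs at any depth, while 156 of the 181 wells at 2 days lie above 0.

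Spp1 was the gene with the largest ratio among those named by rule when ranked by the lower bound of the interval. Spp1 lies at chr5:104435118-104441050 on the plus strand of GRCm38 and Ibsp in the same gene cluster at chr5:104299171-104311469. Spp1 had 20 UMIs in 7 wells at 2 days and 170 UMIs in 112 wells at 6 weeks, a level 9.28-fold higher (5.83 to 15.6). The highest well held 8 Spp1 UMIs at 2 days and 9 at 6 weeks, and the highest level in a well was 96.4 and 132 UMIs per 10000. Ibsp had 20 UMIs in 3 wells at 2 days and 137 UMIs in 94 wells at 6 weeks, a level 7.48-fold higher (4.66 to 12.6). Its highest well held 7 UMIs at 2 days and 5 at 6 weeks, and the highest level in a well was 38.1 and 91.2 UMIs per 10000. For both genes the number of wells with a UMI differed more than the number of UMIs in the highest well. At 13 weeks the level of Spp1 was 0.934 and that of Ibsp 0.339 UMIs per 10000, against 10.8 and 8.74 at 6 weeks.

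Mmp13, a collagenase of hypertrophic cartilage and osteoblasts, had 31 UMIs in 2 wells at 2 days and 137 UMIs in 68 wells at 6 weeks, 4.83-fold higher (3.25 to 7.38). In contrast to Spp1 and Ibsp, Mmp13 had 1 well with 52 UMIs at 6 weeks and 1 with 26 at 2 days, and without these the level was 18.6-fold higher. Bglap went the other way in the pool because 230 of its 253 UMIs at 2 days lay in 1 well, and it had 163 UMIs at 6 weeks with no more than 4 in any well. Bglap was detected in 20 wells at 2 days and 107 at 6 weeks, and its pooled level was 0.704-fold that of 2 days (0.574 to 0.860) with the top wells and 7.55-fold higher without them. Bglap2, the neighboring osteocalcin gene on chromosome 3, also had 111 of its 126 UMIs at 2 days in 1 well and 68 UMIs in 36 wells at 6 weeks. Bglap and Bglap2 are near-identical copies, so that their separate counts are uncertain.

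The transcription factors that define osteoblasts had few UMIs at either time. Runx2 had 9 UMIs at both times, Sp7 had 0 at 2 days and 2 at 6 weeks, and Dlx5 had 4 and 1. The osteocyte gene Dmp1 had 0 and 4 UMIs, and Alpl, the alkaline phosphatase of mineralizing cells, had 11 and 19. The osteoblast list as a whole had a level of 26.5 UMIs per 10000 at 2 days (24.1 to 29.1) and 36.7 at 6 weeks (33.8 to 39.9), and 3.39 at 13 weeks. Of its 5 counted members, 2 were 2-fold or more higher, 0 were 2-fold or more lower and 2 had a lower pooled level with an interval below 1, against 6.1% and 3.22% of all genes past 2-fold. The ratio of the list was 1.39 and turned on the highest well of each gene, since it was 6.22 without those wells. It was 0.829 when gene entries with 1 read per UMI were left out and 0.518 on read counts.

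With each well thinned at random to 300 UMIs and shallower wells left out, which matches UMIs per well and not reads per UMI, 33.5% of 6-week wells had an Spp1 UMI (26.7 to 40.9) and 2.86% of 2-day wells (0.934 to 6.54). For Ibsp the shares were 23.1% and 0.571%, and for Bglap 30.8% and 6.86%. Col1a1 was found in 89.0% of thinned 6-week wells and 53.1% of 2-day wells, and Col1a2 and Sparc each in 98.4% at 6 weeks against 76% and 83.4% at 2 days. The intervals of the 2 times did not overlap for any of these 6 genes. Acta2, the gene whose promoter labels the cells, was found in 9.71% of wells at 2 days and 7.14% at 6 weeks, and Pdgfrb, a receptor of mural and mesenchymal cells, in 10.9% and 11.5%, with overlapping intervals. The higher share of wells at 6 weeks was thus not seen for these 2 genes of the labeled cells.

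**Figure D3:**
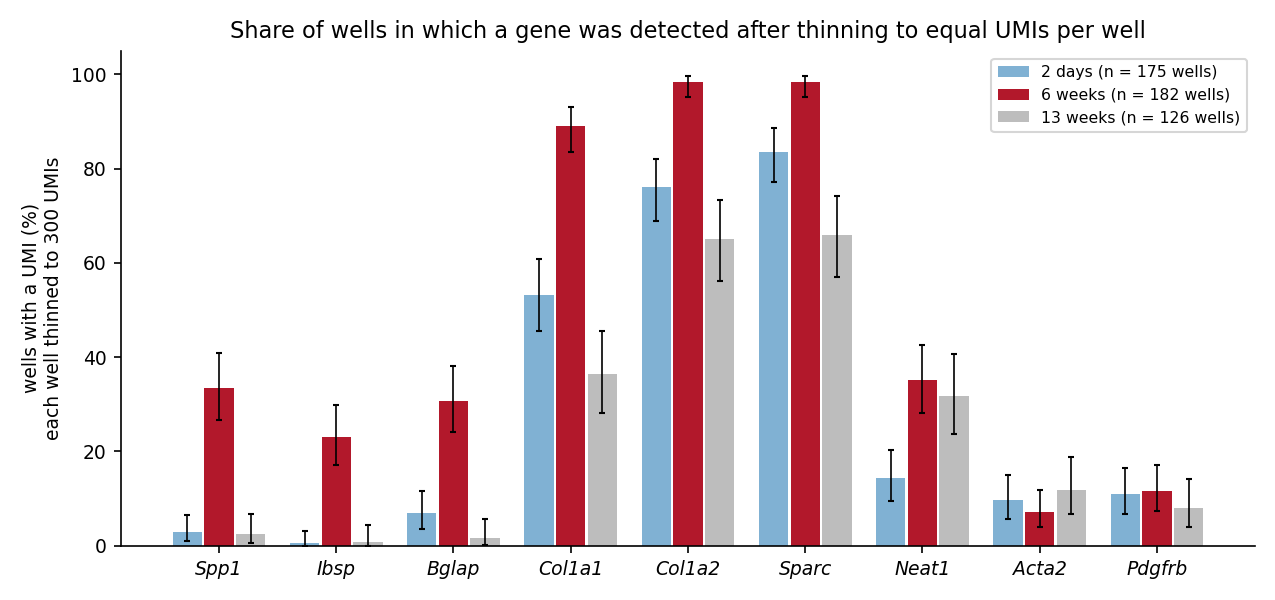
Percentage of wells with a UMI of each gene after thinning every well to 300 UMIs, at 2 days, 6 weeks and 13 weeks, with bars for the share and lines for its exact 95% binomial interval. Spp1, Ibsp and Bglap were found in 33.5%, 23.1% and 30.8% of 6-week wells and in under 10% of wells at the other times, while the shares of Acta2 and Pdgfrb overlapped between times.

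At 6 weeks Spp1 was found in 61.0% of Rgs5 wells, 53.1% of tendon-gene wells and 63.8% of wells of neither population, and at 2 days in 0%, 8.96% and 1.27%. The median depths of these 3 sets of wells at 6 weeks were 621, 664.5 and 695.5 UMIs. Whether an Spp1 UMI in a 6-week well came from the cell of that well was not tested.

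The same transcripts were found in 6-week wells that held too few genes to be kept. Of the 27 wells under 200 genes, 6 had no UMI and the other 21 had 100 or more UMIs. Col1a2 and Sparc were found in all 21 of these, with 185 and 134 UMIs, Bglap in 14, Spp1 in 13 and Ibsp in 10. Of the 11 such wells at 2 days, 5 had Col1a2 and 0 had Spp1, Ibsp, Bglap or Mmp13. The level of Col1a2 in these shallow wells was 414 UMIs per 10000 at 6 weeks (357 to 478), 77.2 at 2 days (47.2 to 119) and 55.0 at 13 weeks (41.2 to 72.0).

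Within the 6-week plate, the bone matrix genes stood in similar proportion to Col1a2 in Rgs5 wells, in wells of neither population and in the wells under the gene minimum. For every 100 Col1a2 UMIs these held 7.28, 7.30 and 8.65 Spp1 UMIs, 6.42, 7.20 and 8.65 Bglap UMIs, and 8.78, 5.25 and 6.49 Ibsp UMIs. The 3 intervals overlapped for each of these genes. Tendon-gene wells had fewer, with 3.64 Spp1 (2.79 to 4.69), 3.41 Bglap and 2.49 Ibsp UMIs. Mmp13 had 4.16 UMIs in tendon-gene wells (3.24 to 5.27), where 1 well held 52 of its 72 UMIs. It had 3.43 in Rgs5 wells, 4.94 in wells of neither population and 3.78 in wells under the minimum. Col3a1, the type III collagen of fibrous tissue, did not keep a common proportion, with 8.99 UMIs for every 100 of Col1a2 in Rgs5 wells, 35.7 in wells of neither population, 16.5 in tendon-gene wells and 2.16 in wells under the minimum. In the Rgs5 wells of 2 days there were 58 Col3a1 and 63 Col1a2 UMIs in all.

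Where a 6-week well held a single UMI of Spp1, Ibsp or Mmp13, that UMI mostly came from 1 read. Among wells with exactly 1 UMI of a gene, that UMI came from 1 read in 39.0% of cases at 6 weeks and 38.8% at 2 days, over all genes. The share was 85.9% for Spp1, 83.9% for Ibsp and 82.1% for Mmp13, and 81.1% for Gpx3, the secreted glutathione peroxidase. Over the 835 genes with 20 or more such wells at 6 weeks the median share was 37.0%, and 11 genes were above 75%. Fmod, 1 of the 3 genes that define tendon-gene wells, was among the 11, at 84.6%. Bglap did not share this feature, at 2.90%. On read counts in place of UMIs, the log2 ratios of Spp1 and Ibsp were 1.52 and 1.15, below the 3.21 and 2.90 on UMIs, while that of Mmp13 was 3.43, above the 2.27 on UMIs. Without entries of 1 read per UMI the 3 log2 ratios were 1.62, 1.34 and 1.34.

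Neutrophil genes had a like spread in low copy. S100a8, which makes a calcium-binding protein of neutrophil granules, had 22 UMIs in 2 wells at 2 days, 21 of them in 1 well, and 20 UMIs in 20 wells at 6 weeks. S100a9, its partner, had 13 UMIs in 1 well and 13 UMIs in 11 wells. Lyz2, a lysozyme of myeloid cells, had 13 UMIs at 2 days and 0 at 6 weeks.

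Rgs5 wells made up 19.3% of kept wells at 2 days (13.9 to 25.9) and 23.8% at 6 weeks (17.9 to 30.5), counting the 3 and 4 wells with both gene sets. In wells thinned to 300 UMIs the shares were 16.6% (11.4 to 22.9) and 20.3% (14.7 to 26.9). Over 20 further random draws they ranged from 10.9% to 16% at 2 days, with a median of 14.3%, and from 17.0% to 21.4% at 6 weeks, with a median of 19.5%, so the draws of the 2 times did not overlap and the first 2-day value lay above its own range. Tendon-gene wells made up 38.7% at 2 days (31.5 to 46.2) and 36.0% at 6 weeks (29.1 to 43.3), and 28% and 30.2% after thinning, with overlapping draws. The binomial intervals of the 2 times overlapped for both populations. The median Rgs5 well held 567.5 UMIs of all genes at 2 days and 621 at 6 weeks, and the median tendon-gene well 845 and 664.5.

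Type I collagen differed more between the times in Rgs5 wells than in tendon-gene wells. Their lowest, median and highest wells held 0, 1 and 17 Col1a2 UMIs at 2 days and 3, 10 and 66 at 6 weeks, and the median tendon-gene well held 17 and 19.5. The level in Rgs5 wells was 4.64-fold higher for Col1a2 (3.56 to 6.14), 5.51-fold for Col1a1 (3.64 to 8.70) and 2.16-fold for Sparc (1.75 to 2.68). In tendon-gene wells the ratios were 1.11 (1.04 to 1.18), 1.39 (1.25 to 1.54) and 1.07 (0.994 to 1.16). The ratio of Col1a2 was 4.20 times as large in Rgs5 wells as in tendon-gene wells (3.19 to 5.59). The 27 wells of the same plate under 200 genes held a median of 6 Col1a2 UMIs, and whether the Col1a2 UMIs of 6-week Rgs5 wells came from the cells of those wells was not tested. Wells of the 2 populations started from different levels, since in 2-day wells Col1a1 took 11.6 UMIs per 10000 in Rgs5 wells and 102 in tendon-gene wells.

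Of 221 genes counted within Rgs5 wells, 24 (10.9%) were 2-fold or more higher at 6 weeks and 20 (9.05%) 2-fold or more lower. The 24 include 3 haemoglobin genes. Haemoglobin had 5 UMIs in Rgs5 wells at 2 days and 448 at 6 weeks, 446 of them in 1 well. Of 533 counted within tendon-gene wells, 28 (5.25%) were higher and 32 (6%) lower. Of 188 genes counted in both populations, 4 were 2-fold or more higher in both (Spp1, Ibsp, Bglap and Neat1) and 3 were lower in both (Gm12374, Thsd7b and Rps16). A further 11 passed 2-fold in Rgs5 wells and 4 in tendon-gene wells, with ratios that differed between the populations by a 95% counting interval. That interval was taken for each of the 188 genes without correction for their number, so counting error alone may place some genes here. The plot of ratios in the 2 populations shows the genes shared by both and those of a single population among the 188.

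**Figure D4:**
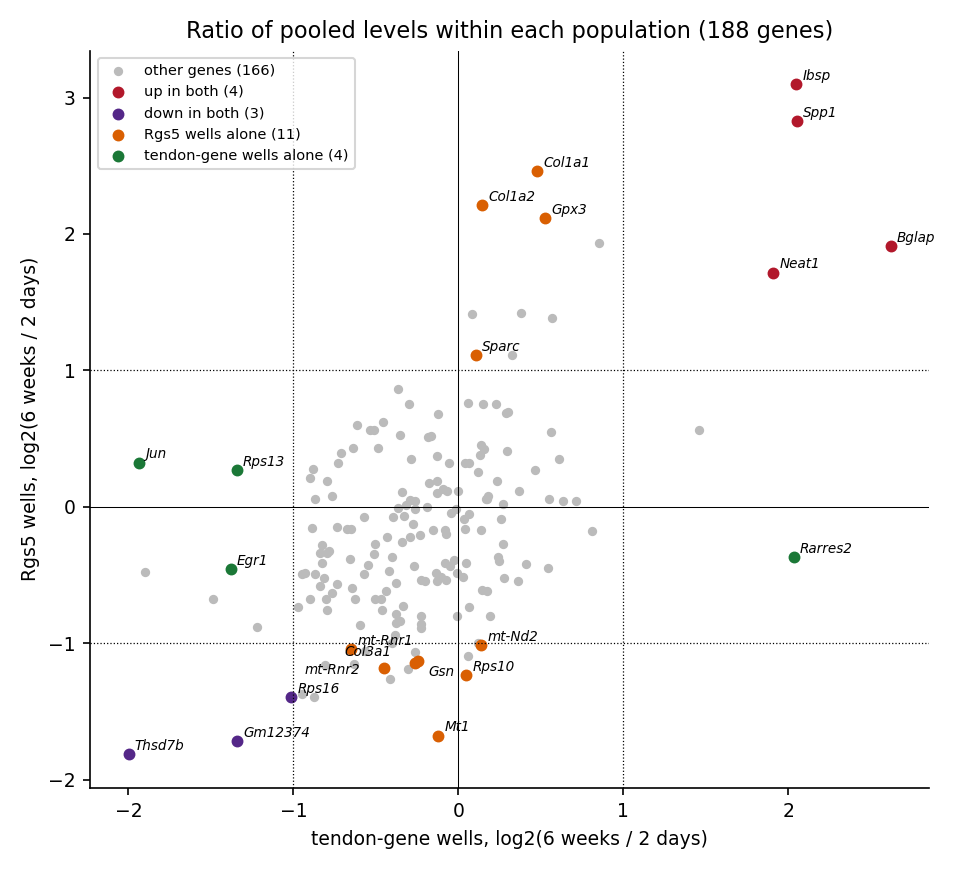
Log2 ratio of the pooled level at 6 weeks over 2 days within tendon-gene wells (x axis) and within Rgs5 wells (y axis) for 188 genes, with dotted lines at 2-fold, colors for genes past 2-fold in both or in 1 population, and Spp1 and Ibsp, at 0 in the 2-day Rgs5 wells, drawn at their lower bound. Spp1, Ibsp, Bglap and Neat1 lie at the upper right, Col1a1, Col1a2, Gpx3 and Sparc above the upper line near 0 on the x axis, and Jun, Egr1 and Rps13 to the left.

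Spp1 had 0 UMIs in 2-day Rgs5 wells and 34 UMIs in 25 of 41 Rgs5 wells at 6 weeks, and was at least 7.10-fold higher against a floor of 3 UMIs over the group, with an exact lower limit of 5.46. Ibsp had 0 and 41 UMIs, at least 8.56-fold higher against the same floor, with an exact lower limit of 6.65. Bglap had 5 and 30 UMIs in Rgs5 wells, 3.76-fold higher (1.44 to 12.4). In tendon-gene wells, Spp1 was 4.15-fold higher (2.45 to 7.33), Ibsp 4.14-fold (2.18 to 8.38), Bglap 6.15-fold (3.27 to 12.6) and Bglap2 6.43-fold (2.82 to 17.1). In the pool, by contrast, 1 well held most 2-day Bglap. No 6-week well held more than 4 Bglap UMIs, and whether the Spp1, Ibsp and Bglap UMIs of these wells came from their cells was not tested. Summed over the osteoblast list, the ratio was 11.6 in Rgs5 wells (5.49 to 29.5) and 4.44 in tendon-gene wells (3.32 to 6.01), whereas in wells of neither population it was 0.699 (0.591 to 0.827). In those wells Bglap had 235 UMIs in 5 wells at 2 days and 70 UMIs in 41 wells at 6 weeks.

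Gpx3 had ratios near those of type I collagen, at 4.33 (2.35 to 8.72) in Rgs5 wells, from 12 to 83 UMIs, and 1.44 in tendon-gene wells. Other genes were lower in Rgs5 wells at 6 weeks. Col3a1 was 0.453-fold that of 2 days (0.297 to 0.686) and Gsn, an actin-severing protein abundant in fibroblasts, 0.457-fold (0.287 to 0.721). In Rgs5 wells with fewer than 2 UMIs of 6 endothelial genes, Col3a1 was 0.534-fold (0.335 to 0.840). In the other Rgs5 wells it was 0.528-fold (0.167 to 1.71), so it was short of 2-fold in each part. The list of secreted adventitial fibroblast genes was 0.558-fold in Rgs5 wells (0.452 to 0.689) and 1.04-fold in tendon-gene wells, and was 1.35-fold higher in wells of neither population (1.26 to 1.44) and 1.06-fold over all wells. The pericyte list was 1.40-fold higher over all wells (1.23 to 1.61) and 2.02-fold in wells of neither population (1.35 to 3.05), and 0.848-fold (0.727 to 0.990) within Rgs5 wells, with Rgs5 itself at 0.947-fold (0.776 to 1.16), which the choice of wells partly fixes. Mt1, a metal-binding metallothionein, was 0.313-fold (0.148 to 0.632) in Rgs5 wells and 0.919-fold in tendon-gene wells.

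Neat1 was higher by a similar ratio in each set of wells. It is a long noncoding RNA that builds paraspeckles in the nucleus and lies at chr19:5824708-5845478 on the minus strand. Neat1 had 90 UMIs in 58 wells at 2 days, with at most 4 in a well, and 296 UMIs in 109 wells at 6 weeks, with at most 14. Its level was 3.59-fold higher at 6 weeks (2.83 to 4.60), and 3.29-fold in Rgs5 wells, 3.75-fold in tendon-gene wells and 3.69-fold in wells of neither population. Unlike for Spp1, the 13-week level of 17.2 UMIs per 10000 was near the 18.9 of 6 weeks, against 5.26 at 2 days. After thinning, 14.3% of wells had a Neat1 UMI at 2 days, 35.2% at 6 weeks and 31.7% at 13 weeks. Of Neat1 UMIs alone in a well, 40.5% came from 1 read at 6 weeks and 41.2% at 2 days.

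Malat1, the neighboring nuclear RNA on chromosome 19, was 1.47-fold higher (1.39 to 1.55), within the 2-fold limit, with ratios of 1.46, 1.47 and 1.36 in the 3 sets of wells. Of 5 counted members of the nuclear long noncoding RNA list, 2 had a higher level and 3 a lower one, 2 of these with an interval below 1. Xist was 0.800-fold, in 55.2% of wells at 2 days and 39.7% at 6 weeks. Pdlim1, an adaptor of actin stress fibers, was 4.73-fold higher (2.67 to 8.94), in 15 wells at 2 days and 44 at 6 weeks. Tmem176b, a membrane protein, was 3.40-fold higher (1.97 to 6.14), in 18 and 43 wells. In tendon-gene wells Pdlim1 was 4.06-fold higher (1.79 to 10.4), and Rarres2, the precursor of the chemokine-like protein chemerin, 4.09-fold (2.04 to 8.91) against 0.773-fold in Rgs5 wells. Gm6977, a processed pseudogene on chromosome X whose reads may come from its parent gene, was 3.43-fold higher (2.22 to 5.46), with a log2 ratio of 0.82 on read counts.

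Endothelial genes were higher in the pool at 6 weeks. Flt1, a receptor for VEGF, had 10 UMIs in 8 wells at 2 days and 43 UMIs in 20 wells at 6 weeks, 4.70-fold higher (2.32 to 10.5). Ptprb, a phosphatase of endothelial cells, was 4.27-fold higher (2.17 to 9.18), and Gpihbp1, which carries lipoprotein lipase to the capillary surface, 2.43-fold (1.36 to 4.50). Of 6 counted members of the endothelial list, 4 were 2-fold or more higher and 0 were lower, against 6.1% and 3.22% of all genes, and the summed level was 14.7 UMIs per 10000 at 2 days, 27.6 at 6 weeks and 40.4 at 13 weeks. Fabp4, a fatty acid binding protein of capillary endothelium and adipocytes, was 2.29-fold higher (1.90 to 2.77), and its level was 9.64, 22.1 and 39.7 at the 3 times. Gpr116, an adhesion receptor found in endothelium, was 3.46-fold higher (1.77 to 7.27). With wells thinned to 300 UMIs, the log2 ratios of Flt1, Gpr116 and Fabp4 were 0.31, 0.62 and 0.77, no longer past 2-fold, against 2.23, 1.79 and 1.20 without thinning, whereas that of Ptprb was 2.40 against 2.09 and the ratio of the list 2.20 against 1.88.

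Within Rgs5 wells these differences were smaller. Of the Fabp4 UMIs, 156 of 165 at 2 days and 311 of 346 at 6 weeks were in Rgs5 wells, and the ratio within them was 1.25 (1.03 to 1.52). The endothelial list was 1.33-fold higher there (1.09 to 1.64). Wells with 2 or more UMIs of 6 endothelial genes were 9 of the 32 Rgs5 wells at 2 days and 15 of 41 at 6 weeks. In those wells Flt1 was 2.31-fold higher (1.01 to 6.16) and Fabp4 0.946-fold (0.761 to 1.18). In the Rgs5 wells without them, 23 at 2 days and 26 at 6 weeks, Col1a2 was 4.58-fold higher (3.42 to 6.24) and Col1a1 4.77-fold (2.99 to 7.97), against 4.64 and 5.51 with all Rgs5 wells. In the wells with endothelial UMIs they were 8.11-fold (4.16 to 18.1) and 10.97-fold (4.15 to 41.1) higher, from 9 and 4 UMIs at 2 days. Sparc was 2.81-fold higher without endothelial UMIs (2.17 to 3.68) and 1.54-fold with them (1.08 to 2.24). Rplp1 was 0.275-fold (0.161 to 0.453) and 0.620-fold (0.399 to 0.970).

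H2-D1, a class I major histocompatibility antigen, was 1.93-fold higher in the pool (1.48 to 2.53) and 3.82-fold in Rgs5 wells (1.94 to 8.36). It had 10 UMIs in 9 Rgs5 wells at 2 days and 61 in 20 at 6 weeks. In Rgs5 wells with endothelial UMIs the ratio was 4.73 (1.71 to 18.2) and in those without 2.67 (1.03 to 8.12). B2m, the light chain of the same complex, was 1.24-fold higher in the pool (1.05 to 1.46). The list of class I and interferon-induced genes was 1.23-fold higher (1.133 to 1.34), with 0 of 9 counted members past 2-fold, against 6.1% and 3.22% of all genes. In Rgs5 wells it was 1.51-fold higher (1.27 to 1.80), with 2 of 6 counted members 2-fold or more higher against 10.9% of all genes, and it was 1.03-fold in tendon-gene wells and 1.05-fold in wells of neither population.

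Skeletal muscle genes were also higher in the pool, by way of a few wells. Wells with 5 or more UMIs of 5 muscle genes were 2 of 181 at 2 days and 10 of 189 at 6 weeks, and held 305 of the 342 UMIs of these genes at 6 weeks. Acta1, the actin of muscle fibers, was 4.52-fold higher (3.23 to 6.43) and myoglobin (Mb) 7.15-fold (3.77 to 14.96) with these wells. Without them, their log2 ratios were 0.42 and -0.50. Of 13 counted members of the muscle list, 7 were 2-fold or more higher and 1 was lower, against 6.1% and 3.22% of all genes. Single members went both ways. The slow-fiber troponin Tnnt1 had 6 UMIs at 2 days and 56 at 6 weeks, and the slow light chain Myl2 1 and 81, while the fast-fiber genes Tnnc2 and Pvalb had 60 and 32 UMIs and 36 and 3 UMIs.

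Cytosolic ribosomal protein genes were lower at 6 weeks in every set of wells. Their summed level was 989 UMIs per 10000 at 2 days (974 to 1004), 750.1 at 6 weeks (737 to 764) and 867 at 13 weeks. Of 77 counted genes, 74 had a lower pooled level at 6 weeks, 44 of them with an interval below 1, and 1 passed 2-fold. Their median log2 ratio was -0.39, against 0.04 over all genes. The summed ratio was 0.759 (0.741 to 0.777) over all wells, 0.753 in Rgs5 wells, 0.750 in tendon-gene wells and 0.763 in wells of neither population. Within the populations, 6 of 65 counted members were 2-fold or more lower in Rgs5 wells and 5 of 73 in tendon-gene wells, near the 9.05% and 6% of all genes.

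Rplp1 was the member with the most UMIs among those named. It had 783 UMIs in 165 wells at 2 days and 431 in 143 wells at 6 weeks, 0.601-fold (0.533 to 0.677), and 0.448-fold in Rgs5 wells (0.327 to 0.611). Rps16 was 0.503-fold over all wells (0.389 to 0.646) and was found in 106 wells at 2 days and 55 at 6 weeks. Rpsa was 0.521-fold and Rpl12 0.535-fold. Of a list of translation factors and associated proteins, which holds elongation and initiation factors and also Pabpc1, Npm1, Naca, Btf3 and Tpt1, 14 of 17 counted members had a lower level, with a median log2 ratio of -0.40 against 0.04 over all genes and a summed ratio of 0.755 (0.697 to 0.818). Among them, Tpt1, whose mRNA belongs with those of ribosomal proteins to the terminal oligopyrimidine class, was 0.703-fold (0.610 to 0.808).

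Mitochondrial ribosomal RNA was lower as well, while mitochondrial messenger RNA was not over all wells. mt-Rnr1 was 0.642-fold (0.588 to 0.699) and mt-Rnr2 0.637-fold (0.611 to 0.663). The genes of the respiratory chain on the mitochondrial genome were together 0.981-fold (0.921 to 1.04), and those on the nuclear genome 0.946-fold (0.902 to 0.992). In Rgs5 wells the mitochondrial ribosomal RNAs were 0.449-fold (0.416 to 0.485) and the mitochondrial respiratory genes 0.689-fold (0.590 to 0.805). Gm26924, which overlaps nuclear ribosomal RNA sequence, took 633 UMIs per 10000 at 2 days and 418 at 6 weeks. At 13 weeks the mitochondrial ribosomal RNAs stood at 599 UMIs per 10000, above the 449 of 2 days on the same plate and the 286 of 6 weeks.

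Immediate early genes, which respond within minutes to growth factors and to cell isolation, were lower at 6 weeks in tendon-gene wells and not in Rgs5 wells. The summed ratio was 0.593 (0.509 to 0.691) in tendon-gene wells, 1.15 (0.988 to 1.34) in Rgs5 wells and 0.961 (0.898 to 1.03) over all wells. Jun, a subunit of AP-1, had 43 UMIs in 22 tendon-gene wells at 2 days and 9 UMIs in 8 at 6 weeks, 0.262-fold (0.112 to 0.544), against 1.25-fold in Rgs5 wells. The ratio of Jun in Rgs5 wells was 4.79 times that in tendon-gene wells (1.86 to 12.9). Egr1, a zinc finger factor, was 0.384-fold in tendon-gene wells (0.266 to 0.544) and 0.731-fold in Rgs5 wells (0.488 to 1.10). Fos, the partner of Jun, was 0.788-fold in tendon-gene wells (0.533 to 1.15). Of the counted members, 3 of 6 were 2-fold or more lower in tendon-gene wells, against 6% of all genes, and 2 of 7 were 2-fold or more higher in Rgs5 wells, against 10.9%. Over all wells, 0 of 20 counted members were 2-fold or more higher and 1 was 2-fold or more lower, near the 6.1% and 3.22% of all genes. That gene was Atf3, a stress-induced factor, at 0.243-fold (0.109 to 0.488), with 45 UMIs in 27 wells and 10 UMIs in 10 wells. Digestion lasted 30 min at both times, and the part of cell isolation in these levels was not tested.

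Tsc22d3 (GILZ), which glucocorticoids induce, was 0.384-fold over all wells (0.215 to 0.659) and 0.214-fold in tendon-gene wells (0.0737 to 0.515). With wells thinned to 300 UMIs its log2 ratio over all wells was -0.47, against -1.38, and on read counts -0.74, so that it no longer passed 2-fold. Its level at 13 weeks, 3.65 UMIs per 10000, was close to the 3.15 of 2 days. The metallothioneins Mt1 and Mt2, which glucocorticoids and metals induce, were 0.603-fold (0.461 to 0.785) and 0.360-fold (0.260 to 0.491). Mt2 had 167 UMIs in 45 wells at 2 days, at most 20 in a well, and 55 UMIs in 34 wells at 6 weeks, at most 10. Metallothionein levels at 13 weeks summed to 14.2 UMIs per 10000, between the 19.3 of 2 days and the 9.25 of 6 weeks.

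Several secreted regulators were lower at 6 weeks. Sfrp2, which binds Wnt ligands, had 48 UMIs in 18 wells at 2 days and 14 UMIs in 5 wells at 6 weeks, 0.319-fold (0.162 to 0.587). The 3′ end of Sfrp2 overlaps Gm26771, a transcript given below that was also lower. Wif1, another Wnt-binding protein, was 0.395-fold (0.228 to 0.661) and lay mostly in tendon-gene wells, with 56 of 58 UMIs at 2 days and 19 of 21 at 6 weeks. The other counted Wnt antagonists, Sfrp4 and Dkk3, were near 1 at 1.134-fold and 0.971-fold. Igf1, the growth factor, was 0.423-fold (0.279 to 0.627), in 46 and 25 wells, and Igfbp5, a binding protein of it, was 0.575-fold over all wells (0.482 to 0.683) and 0.356-fold in tendon-gene wells (0.248 to 0.503). The log2 ratios of Igf1 on read counts, Wif1 as a mean over wells and Sfrp2 after thinning were -0.63, -0.86 and -0.90, short of 2-fold. Levels of Sfrp2, Wif1 and Igf1 at 13 weeks were 0.849, 0.764 and 1.36 UMIs per 10000, all below the 2-day levels of 2.80, 3.39 and 5.43 on the same plate. For these 3 genes the 13-week level was nearer to that of 6 weeks, in contrast to Spp1.

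Among collagens other than type I, Col16a1, which associates with fibrils, was 0.364-fold (0.217 to 0.591), with 69 UMIs at 2 days and 23 at 6 weeks, and a log2 ratio of -0.85 without the deepest 5% of wells. Col3a1 was 0.583-fold over all wells (0.530 to 0.641), with 1262 and 674 UMIs, and 0.833-fold in tendon-gene wells (0.714 to 0.969). Of 15 counted genes of the collagen list, 0 were 2-fold or more higher and 1 was lower, against 6.1% and 3.22% of all genes, with a median log2 ratio of -0.15. Other genes named on the lower side were Ifrd1 at 0.383-fold, the membrane protein gene Tmem258 at 0.371-fold and the respiratory chain gene Ndufb6 at 0.413-fold. On read counts the log2 ratio of Tmem258 was -0.65, and without entries of 1 read per UMI that of Ndufb6 was -0.97, both short of 2-fold.

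Some noncoding transcripts were lower at 6 weeks too. Gm12374, a long intergenic RNA at chr4:37249403-37332515 on the plus strand, had 339 UMIs in 78 wells at 2 days and 125 UMIs in 57 wells at 6 weeks. It was 0.403-fold over all wells (0.325 to 0.496), 0.305-fold in Rgs5 wells and 0.395-fold in tendon-gene wells. At 13 weeks its level was 28.3 UMIs per 10000, against 19.8 at 2 days and 7.97 at 6 weeks. Thsd7b, a protein-coding gene, was 0.374-fold (0.230 to 0.590), and 4.44, 1.66 and 4.24 UMIs per 10000 at 2 days, 6 weeks and 13 weeks. Gm26461, a small noncoding RNA on chromosome 9, was 0.305-fold (0.146 to 0.588), at 2.51, 0.765 and 2.38. For these 3 genes both times of the mixed plate stood together, apart from the 6-week plate. Gm26771, an antisense transcript on chromosome 3 whose reads cannot be assigned to a strand here, had 70 UMIs in 13 wells and 19 in 3 wells. It lies at chr3:83773853-83789956 on the minus strand and overlaps the 3′ end of Sfrp2, at chr3:83766321-83774316 on the plus strand. Whether the UMIs of Gm26771 and Sfrp2 came from the same transcripts was not tested.

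The summed levels of genes that mark the tendon and fibrous populations were close at both times, with members on both sides. The tendon and ligament list stood at 150 UMIs per 10000 at 2 days (144 to 156) and 144 at 6 weeks (138 to 150), a ratio of 0.960 (0.907 to 1.02). The small leucine-rich proteoglycans, such as decorin (Dcn), had a ratio of 1.01 (0.961 to 1.07). None of the 15 and 11 counted members of these lists passed 2-fold, against 6.1% and 3.22% of all genes, shares at which few would in lists of this size. Of the 15 tendon and ligament genes, 6 were lower and 2 higher with intervals that did not include 1. Comp, a matrix protein of tendon and cartilage, was 1.79-fold higher (1.26 to 2.55), and Angptl7, a secreted protein, 0.575-fold (0.440 to 0.746). The list of candidate skeletal stem cell genes had a ratio of 1.01 (0.881 to 1.16) with 4 counted members, too few to read against the share of all genes past 2-fold, and the cell cycle list a ratio of 0.870 (0.708 to 1.07).

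**Figure D5:**
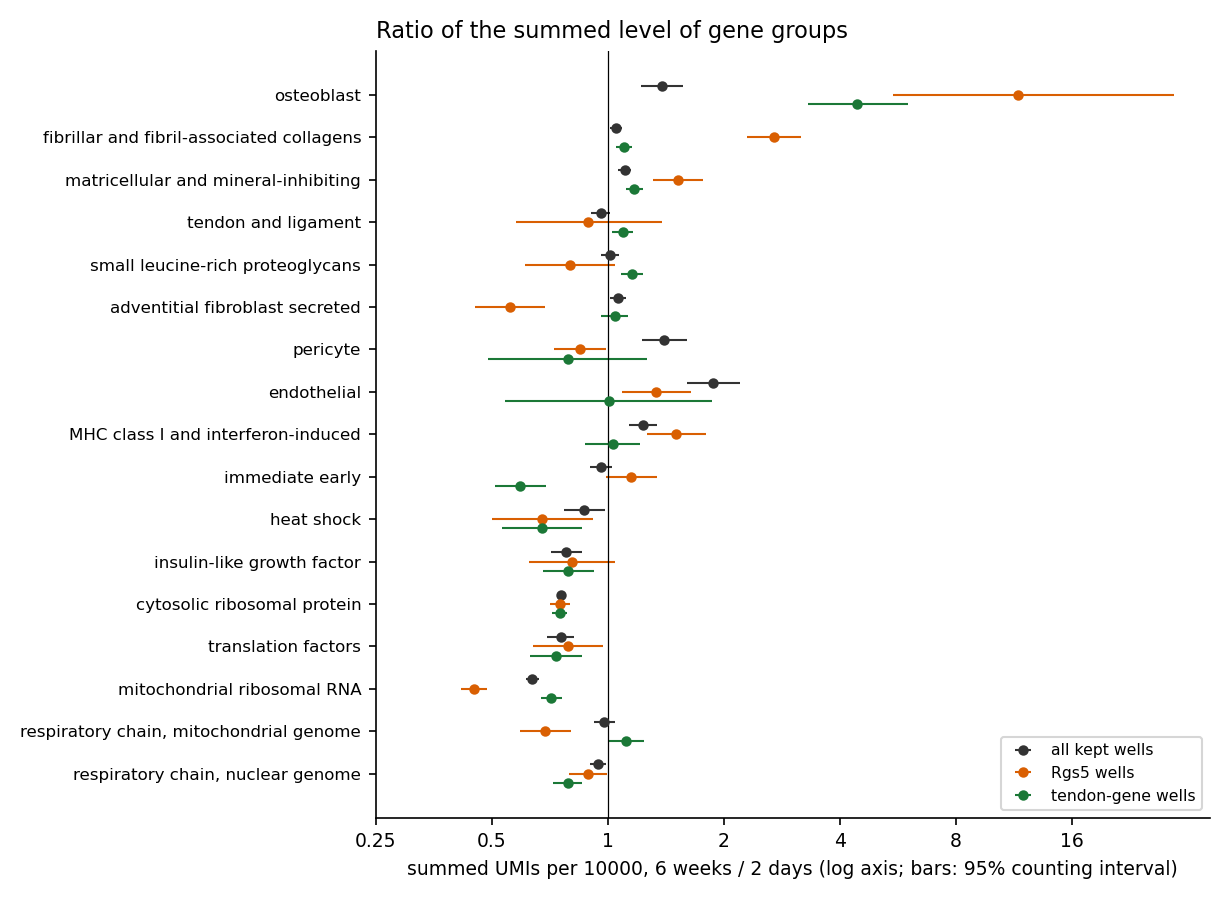
Ratio of the summed level of each gene list at 6 weeks over 2 days, on a log axis, over all kept wells, within Rgs5 wells and within tendon-gene wells, with lines for the 95% counting interval. The osteoblast list lies at 11.6 in Rgs5 wells and 4.44 in tendon-gene wells (wells of neither population, at 0.699, are not drawn), the cytosolic ribosomal proteins lie near 0.75 in all 3, and immediate early genes lie at 0.593 in tendon-gene wells and 1.15 in Rgs5 wells.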

How the data were processed

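Single Tom+ periosteal cells were sorted into wells and their 3′ ends sequenced with plate-based Drop-seq, with the wells of a plate pooled after cDNA synthesis and amplified for 13 PCR cycles. The authors aligned reads to mm10 with STAR 2.5.4a and collapsed reads by UMI with Drop-seq tools, and the processing notes also name Picard 2.9.3 and bcl2fastq 2.18.0.12. For each of 2 plates the authors deposited 1 matrix of UMI counts and 1 of read counts, with genes against wells and no normalization, filtering or removal of doublets. Pooling wells before amplification means that barcodes, not tubes, separate the cells, and because each plate lists its own genes only the 12983 genes listed for both were compared. Genes of 1 plate held 0.796% of 2-day and 1.33% of 6-week UMIs. The 168 wells assigned to no time point were not used.

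UMI counts were pooled over wells with 200 or more genes and divided by all UMIs of the same wells, times 10000. Exact conditional intervals were computed for ratios, Poisson intervals for levels and Clopper-Pearson intervals for shares, each at 95% (Python 3.11.15, numpy 2.4.6, pandas 2.3.3, scipy 1.17.1, matplotlib 3.10.9). Called means a ratio past 2-fold among genes with 30 or more UMIs over both times. A count of 0 was given a floor of 3 UMIs over the group. For shares, wells were thinned to 300 UMIs, leaving out 6 wells at 2 days, 7 at 6 weeks and 7 at 13 weeks. Positions are from GENCODE M21 on GRCm38.

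Genes named were the 15 highest and 15 lowest past 2-fold with 50 or more UMIs in 15 or more wells that stayed past 1.5-fold without their top well at each time, ranked by the interval bound nearest to 1, the 6 highest and 6 lowest in each population with 30 or more UMIs in 8 or more wells, and members of the gene lists. Some of these genes are not reported here. Members and lists were chosen with earlier results of these data known. Alternatives varied the gene minimum, the UMI minimum, read counts, pooling, thinning, scaling, and the wells, genes or entries left out. In simulated counts for all wells, 100 of 100 genes raised 4-fold and 63 of 64 lowered 4-fold were called, as were 12 higher and 24 lower of 1566 unchanged genes. All simulated wells of a time were drawn from the same profile. Populations, and single wells that hold most UMIs of a gene, were therefore not simulated.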

Additional observations from a re-analysis of the deposited data

Results flagged for a closer look

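Signal was seen in wells that the comparison does not use. In the 27 wells of the 6-week plate with under 200 genes, Col1a2 took 414 UMIs per 10000 (357 to 478), above the 77.2 (47.2 to 119) of the 11 such wells at 2 days and the 206 of the kept 6-week wells. In the same wells, Spp1 took 35.8 UMIs per 10000 (20.5 to 58.2) from 16 UMIs in 13 wells, whereas the 2-day wells under the minimum held 0 Spp1 UMIs of 2590, and the 59 such wells at 13 weeks held 1 of 9633. What these wells contained was not tested.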

How the results depend on the processing

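With 1 pool of mice for each time point, alternatives show how values move with the processing and not how they vary between animals. No paired analysis was possible because there was 1 pool per time point and no test. The counts of 108 higher and 57 lower genes became 222 and 196 on read counts, 213 and 165 with wells thinned to 300 UMIs, 700 and 444 with a minimum of 10 UMIs per gene, 9 and 4 with 100, and 163 and 94 when entries with 1 read per UMI were left out, an alternative chosen after seeing the data, as was leaving out haemoglobin wells. The osteoblast ratio of 1.39 was reversed on read counts (0.518) and without entries of 1 read per UMI (0.829), and was 1.20 with 300 genes per well, 2.94 as a mean over wells, 2.53 thinned and 6.22 without the top well of each gene. The ribosomal protein ratio of 0.759 was 0.789 with 300 genes, 0.675 on reads, 0.735 as a mean over wells, 0.727 without mitochondrial and ribosomal RNA in the total and 0.808 with the median-ratio size factor. The muscle ratio of 2.09 was reversed without muscle wells (0.761) and was 1.33, 1.52, 3.32, 3.15, 4.51 and 2.54 with 300 genes, on reads, as a mean over wells, thinned, without top wells and without 1-read entries. The tendon ratio of 0.960 was 1.05 thinned, 1.02 with the size factor, 0.905 without the deepest wells and 1.03 reweighted to the 2-day classes. Of 420 values for 30 named genes, 42 moved and 1 reversed (Mb without muscle wells, log2 -0.50), and 15 genes were past 2-fold in every setting. Genes higher in both populations numbered 4, then 2 without 1-read entries, 2 with 2 or more Rgs5 and 5 or more tendon-gene UMIs, and 0 without Rgs5 wells holding endothelial UMIs, where 93 genes and not 188 were counted. There Spp1 had 0 and 26 UMIs in Rgs5 wells, Ibsp 0 and 27, and Neat1 5 and 18 (2.88-fold), under the minimum of 30. Those lower in both numbered 3, then 15 on reads, 5 without 1-read entries, 1 with the stricter minimums and 1 without endothelial wells. Those of Rgs5 wells alone numbered 11, then 47 on reads and 17 without 1-read entries, and those of tendon-gene wells alone 4, then 22 on reads and 1 without endothelial wells. Rgs5 shares were 10.9% at 2 days when thinned to 500 UMIs, and 10.3% and 13.7% with 2 or more UMIs. Tendon-gene shares at 2 days were 38.7% without thinning, 37.2% at 500 UMIs, 19.4% with 5 or more UMIs and 45.3% on reads, and at 6 weeks 23.1% with 5 or more and 40.2% on reads. The cause was not tested for results that moved, apart from the settings that leave out wells or genes.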

Other observations

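Nr1d1, a repressor of the circadian clock, had 39 UMIs in 34 wells at 2 days and 71 UMIs in 47 wells at 6 weeks, 1.99-fold higher (1.33 to 3.02), and the clock output factor Dbp was 1.90-fold higher (1.24 to 2.97). The clock list was 1.46-fold higher (1.20 to 1.77), with 1 of 6 counted members past 2-fold, against 6.1% of all genes, and its level at 13 weeks was 14.6 UMIs per 10000, against 10.7 at 2 days and 15.6 at 6 weeks.

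The chemokine Cxcl1 was 2.98-fold higher (1.80 to 5.10), with 60 UMIs in 19 wells at 6 weeks, 17 of them in 1 well, and a level of 0.679 UMIs per 10000 at 13 weeks against 1.28 at 2 days. With wells thinned to 300 UMIs its log2 ratio was 0.58, against 1.57. Chodl, a lectin-like membrane protein, was 1.42-fold higher over all wells (1.07 to 1.89) and 2.00-fold in tendon-gene wells (1.39 to 2.88).

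Among cell cycle genes, the inhibitor Cdkn1a had 15 UMIs in 12 wells at 2 days and 37 UMIs in 32 wells at 6 weeks, 2.69-fold higher (1.44 to 5.28), and Cdkn1c, another inhibitor, had 26 and 8 UMIs, 0.336-fold (0.131 to 0.764). Lone UMIs came from 1 read in over 75% of wells for 11 of 835 genes at 6 weeks and 4 of 879 at 2 days, and among the 11 genes Cdkn1a stood at 85.2%, Fmod at 84.6% and Lum at 78.4%. The neutrophil granule gene Ngp, chosen after its values were seen, had the highest share at 90%, with 1 UMI at 2 days and 24 UMIs in 22 wells at 6 weeks.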
